A study of Schizosaccharomyces pombe with 3 samples.

Results

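The citric acid cycle enzymes of fission yeast, Schizosaccharomyces pombe, were described on 3 expression arrays of wild type cells. The genes were taken by symbol from a list of 10: cit1, idh1, idh2, idp1, kgd1, kgd2, lsc1, lsc2, fum1 and mdh1. A gene was used where its symbol in the probe annotation, or failing that its current symbol, was the listed name in lower case. This found 7 of the 10, out of the 2896 fission yeast genes that the annotation named and that matched the gene table: cit1, idh1, idh2, idp1, kgd2, lsc1 and fum1. Of these, 6 are counted here as genes of cycle enzymes, including idp1, whose isocitrate dehydrogenase uses NADP in place of NAD. The other, lsc1, matched by name only, since in fission yeast this symbol is known for a cyclin gene. It is described apart, and summary values are given with and without it. The match of symbols to probe sets used names only and no signal, but the list itself was chosen with earlier results of these data known. The annotation named no probe set for kgd1, lsc2 or mdh1, and these were not analysed here. Succinate dehydrogenase, which also works in the respiratory chain, was left out of the set by its definition and is given further on as a neighbour.

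All 3 arrays carried total RNA of the plus mating type (h+) that carried leu1-32, ade6-210 and also ura4-DS/E, grown in liquid YEA, a rich medium, at 30 degrees. They formed 1 group, so no condition, strain or time was compared with another. Nothing in the labels tells whether separate cultures were used, so p-values and SDs cover only how much these samples differed, and that part may be technical. Each value is a MAS5 signal, a background-corrected brightness of 1 probe set in arbitrary units.

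The citric acid cycle oxidises acetyl-CoA in the mitochondrial matrix. It delivers reduced cofactors to the respiratory chain and also supplies 2-oxoglutarate for glutamate synthesis and oxaloacetate for aspartate synthesis. Fission yeast ferments glucose to ethanol even in air, and it lacks the glyoxylate cycle that lets budding yeast grow on acetate. The gene table lists glu3 as another name of idh1 and glu2 as another name of idh2, names of the kind given to mutants that need glutamate.

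The 6 cycle genes all gave signal above background, as did 99.9% of all genes. For 4 of the 6 the range between arrays was below the median of all genes, but bright genes vary less than dim ones. The mean signals of the 6 lay between 329 and 792, where the background limit of an array was near 1.2. The highest array exceeded the lowest by at most 1.09-fold for any of the 6. By mean log2 signal, 3 of the 6 lay in the top 25% of all genes, 3 lay in the middle and 0 lay in the bottom 25%. The median over the 6 genes was a log2 signal of 9.09, and it was 8.90 over all 7 matches with lsc1, beside 8.22 over all 2896 genes. Probe sets differ in brightness for the same amount of RNA, so the place of a single gene mixes transcript level with the brightness of its probes. No gene was therefore ranked against another as a level of RNA. Each of the 7 matches had 1 probe set, so no averaging over probe sets entered their values.

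The first reaction joins acetyl-CoA and oxaloacetate to citrate and is carried out by citrate synthase, encoded by cit1. Its signal was 635, 601 and 617 on arrays 1, 2 and 3, or 618 ± 17.2 (SD, n = 3). Array 1 was the highest and array 2 the lowest, 1.06-fold apart. On the log2 scale cit1 gave 9.27 ± 0.04 (SD, n = 3), and 80.6% of all genes had a lower mean.

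Isocitrate is oxidised to 2-oxoglutarate by an NAD-dependent enzyme built from the products of idh1 and idh2, and by an NADP-dependent enzyme encoded by idp1. The signal of idh1 was 349, 319 and 320 on arrays 1, 2 and 3, with a mean log2 signal of 8.36 ± 0.07 (SD, n = 3). Array 1 stood above the others, which were nearly equal, and 53.2% of all genes had a lower mean. The signal of idh2 was 472, 475 and 487, with a mean log2 signal of 8.90 ± 0.02 (SD, n = 3) and 69.6% of genes lower. Here array 1 was the lowest and array 3 the highest, so the probe sets of these 2 subunits did not follow the same order over the arrays. Array 1 minus the mean of the other arrays was 0.13 for idh1 and -0.03 for idh2 on the log2 scale. With 1 sample per array, neither difference has a test.

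The NADP-dependent isocitrate dehydrogenase gene idp1 had the brightest probe set of the 6 and the steadiest. Its signal was 785, 799 and 792 on arrays 1, 2 and 3, or 792 ± 6.90 (SD, n = 3), a coefficient of variation of 0.871%. The arrays lay within 1.02-fold, and 4.25% of all genes had a smaller range between arrays. Its mean log2 signal was 9.63 ± 0.01 (SD, n = 3), with 87.0% of genes lower.

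The next reaction turns 2-oxoglutarate into succinyl-CoA. The gene kgd2 encodes the succinyltransferase (E2) subunit of the 2-oxoglutarate dehydrogenase complex. Its signal was 664, 688 and 665 on arrays 1, 2 and 3, with a mean log2 signal of 9.39 ± 0.03 (SD, n = 3) and 82.6% of genes lower. Array 2 was above the others, 1.03-fold over the lowest.

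Fumarate is hydrated to malate by fumarase, encoded by fum1. Its signal was 438, 404 and 441 on arrays 1, 2 and 3, or 428 ± 20.7 (SD, n = 3). Array 2 was the lowest, and the range was 1.09-fold. The mean log2 signal was 8.74 ± 0.07 (SD, n = 3), with 64.7% of genes lower.

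The symbol lsc1 matched as well. In fission yeast it is known as the gene of a cyclin that works with the kinase Lsk1, while in budding yeast the same symbol names the alpha subunit of succinyl-CoA ligase. Its signal was 227, 251 and 222 on arrays 1, 2 and 3, with array 2 the highest by 1.13-fold over array 3, and 72.0% of all genes had a smaller range. The mean log2 signal was 7.86 ± 0.09 (SD, n = 3), and 39.4% of genes had a lower mean. Its values are given because the symbol was on the list, and they say nothing about succinyl-CoA ligase, which was not analysed here.

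**Figure D1:**
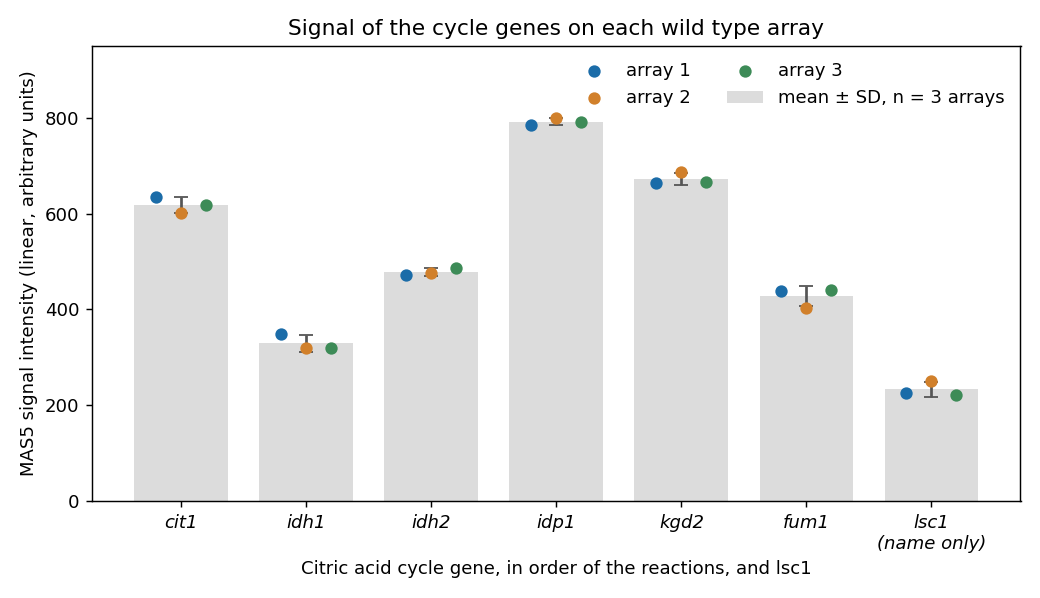
MAS5 signal (linear axis from 0) of the 6 cycle genes, and of lsc1, on each of the 3 wild type arrays. Points are arrays, bars are means and error bars are SDs (n = 3). The points of a gene lie close together, from 785 to 799 for idp1 and from 404 to 441 for fum1.

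All 6 cycle genes, and lsc1, were above background, as were 99.9% of all genes, so the count says nothing particular about the cycle. The background limit of an array was the 95th percentile of log2 signal over 2601 probe sets with fully capitalised symbols in the style of budding yeast, taken as probe sets of another yeast. In log2 units it stood at 0.27 on array 1, 0.31 on array 2 and 0.24 on array 3. The log2 signal minus the limit was tested against 0 with limma over all genes. The difference was 8.999 for cit1, with a 95% interval of 8.89 to 9.11. It was 8.09 (7.97 to 8.21) for idh1, 8.63 (8.52 to 8.74) for idh2 and 9.36 (9.26 to 9.46) for idp1. It was 9.12 (9.02 to 9.22) for kgd2 and 8.47 (8.34 to 8.60) for fum1, and it was 7.59 (7.49 to 7.70) for lsc1. The adjusted p was at most 2.01e-13 for these 7 (limma, two-sided, Benjamini-Hochberg over 2896 genes), and each gene was above the limit on 3 of 3 arrays. The intervals reach 1.07-fold to 1.09-fold to either side of the estimate. Limma draws the variance of each gene towards that of all genes, so this width does not come from the 3 values of a gene alone. The limit was subtracted array by array, so its shifts between arrays enter the width as well. For example, lsc1 had a larger SD of log2 signal than cit1, 0.094 against 0.040, but a smaller standard error, 0.046 against 0.047. The intervals are thus not the precision of the gene signals themselves.

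The array also held capital-symbol probe sets with all 10 names of the list, which gave a background matched by name. None of the 10 was above the limit on all 3 arrays, where 0.769% of the 2601 such probe sets were. Their signals ran from 0.041 to 1.28, while the lowest signal of a fission yeast cycle gene was 319. On at least 1 array 2 of the 10 were over it, where 285 of all 2601, or 10.96%, were. Over the limit on 1 array each were IDH2, with 0.908, 1.15 and 1.22 on arrays 1, 2 and 3, and FUM1, with 1.28, 0.873 and 0.118. The limit corresponds to a signal of 1.20, 1.24 and 1.18 on arrays 1, 2 and 3, so IDH2 passed it on array 3 and FUM1 on array 1. The other 8 were below it on every array. CIT1, for example, gave 0.891, 0.193 and 0.577, and LSC1 gave 0.051, 0.150 and 0.074. For the names with no fission yeast probe set in the annotation, KGD1 gave 0.137, 0.129 and 0.064, LSC2 gave 0.084, 0.044 and 0.041, and MDH1 gave 0.070, 0.042 and 0.133. The median of the 10 was a log2 signal of -2.31, beside -2.28 over all 2601. These 10 belong to the probe sets that set the limit.

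**Figure D2:**
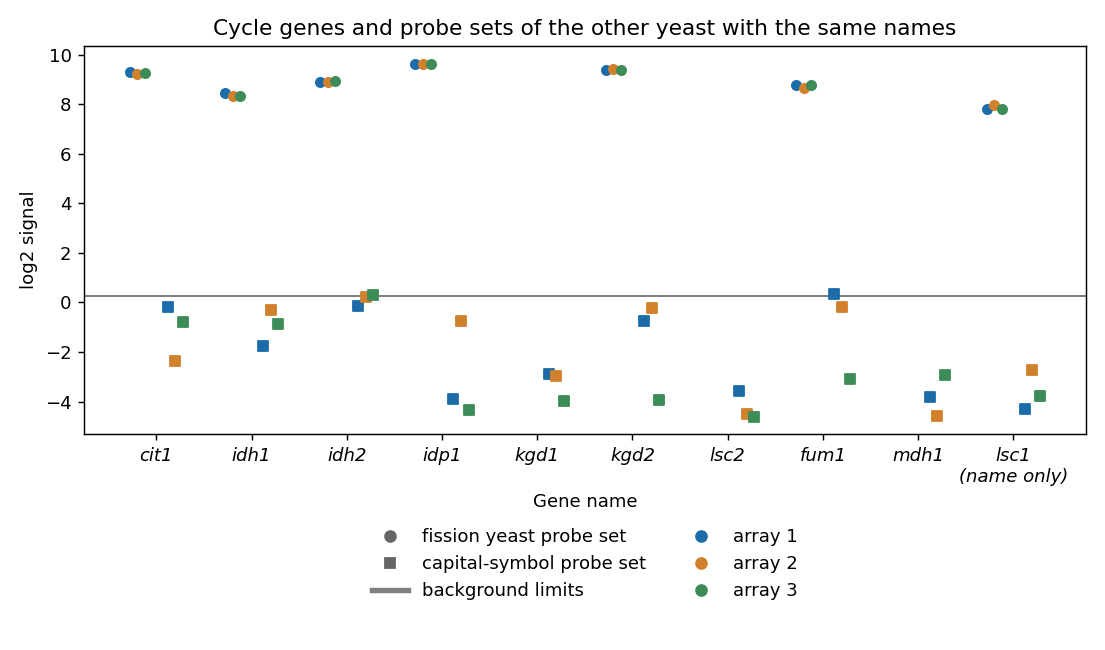
Log2 signal of the fission yeast probe sets of the 6 cycle genes and lsc1 (circles) and of the capital-symbol probe sets with the same names (squares) on the 3 arrays. The dark line spans the background limits of 0.24 to 0.31. The circles of the cycle genes lie from 8.32 upwards, and the capital-symbol probe sets lie at or near the limit or below it. There are no circles for kgd1, lsc2 and mdh1.

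The cycle genes varied between arrays about as much as other genes of like signal. Their median SD of log2 signal was 0.034, or 0.040 with lsc1, beside 0.061 over all genes, but bright genes have smaller SDs than dim ones. Against genes within 0.25 of the same mean log2 signal, 4 of the 6 had an SD below the median and 2 had one above it. The SD of idp1 was 0.013 beside a median of 0.042 over 282 such genes, and 6.74% of them had a smaller SD. The SD of idh2 was 0.024 beside 0.048 over 434 genes, and that of kgd2 was 0.028 beside 0.042 over 315. For cit1 it was 0.040 beside 0.042. On the higher side were idh1 at 0.074 beside 0.058 and fum1 at 0.071 beside 0.049. The SD of lsc1 was 0.094 beside 0.068. An SD of 3 values is itself loosely known. The median SD of the 6 genes was 0.027 without array 1, 0.019 without array 2 and 0.046 without array 3.

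**Figure D3:**
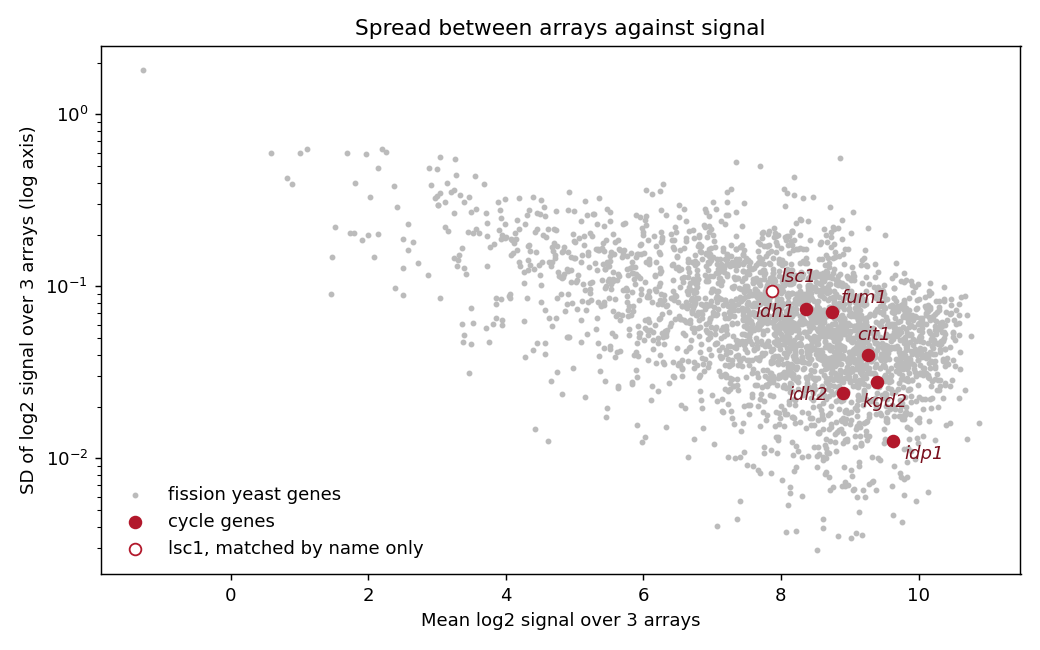
SD of log2 signal over 3 arrays (log axis) against mean log2 signal, for all 2896 fission yeast genes (grey) the 6 cycle genes (red) and lsc1 (open circle). The cycle genes lie within the cloud of other genes, from 0.013 for idp1 to 0.074 for idh1.

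The order of the arrays differed from gene to gene. Each array was the highest for 2 of the 6 cycle genes. The lowest array was array 1 for 3 genes, array 2 for 3 and array 3 for 0. The median over the 6 genes of 1 array minus the mean of the others was 0.02, -0.04 and -0.0004 on the log2 scale for arrays 1, 2 and 3. Over all genes it was -0.002, -0.007 and 0.010. The differences of largest size among the 6 genes were 0.13 for idh1 on array 1 and -0.12 for fum1 on array 2, and for lsc1 array 2 gave 0.16. These are single values with no test.

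**Figure D4:**
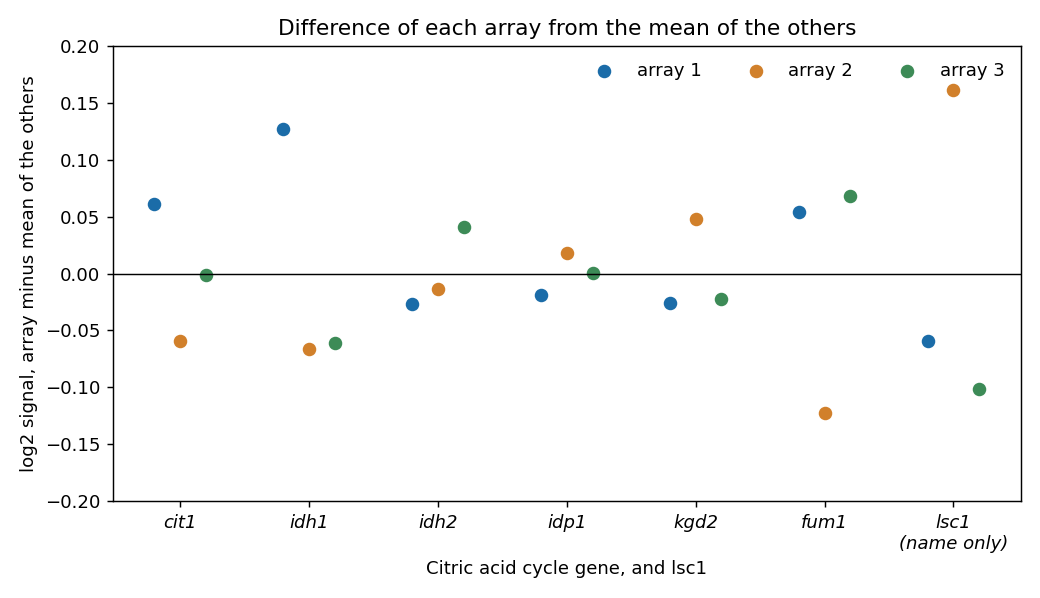
Log2 signal of each array minus the mean of the others, for the 6 cycle genes and lsc1. Points above 0 mark a higher array. The points of each array lie on both sides of 0, for the cycle genes from -0.12 for fum1 on array 2 to 0.13 for idh1 on array 1.

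Genes next to the cycle in metabolism were taken from lists of names, and every measured gene of a list is given. Succinate dehydrogenase oxidises succinate to the fumarate that fum1 uses. The 4 genes listed for it were all above background, as were 99.9% of all genes, and 2 of them were in the top 25%. The flavoprotein gene sdh1 had signals of 897, 884 and 907 and sdh3 had 789, 789 and 785. The iron-sulfur subunit gene sdh2 had 494, 466 and 444 and lay in the middle. The probe set named sdh4 had 142, 125 and 116 and lay in the bottom 25%. The current symbol of its gene is tim18, and in budding yeast Tim18 is known for protein import into the inner mitochondrial membrane. Array 1 was the highest and array 3 the lowest for sdh2, sdh3 and sdh4, though sdh3 differed by only 1.01-fold, while for sdh1 array 3 was the highest and array 2 the lowest.

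Pyruvate enters the cycle through the pyruvate dehydrogenase complex. Of its 5 measured genes, 4 were in the top 25% and 0 in the bottom 25%, with a median log2 signal of 9.75. The E1 subunit genes pda1 and pdb1 gave 9.96 ± 0.07 and 9.66 ± 0.02 (SD, n = 3), and pdx1, for the E3-binding protein, gave 9.75 ± 0.04. The gene of dihydrolipoamide dehydrogenase, dld1, gave 9.85 ± 0.03, and that enzyme is also the E3 subunit of the 2-oxoglutarate dehydrogenase complex to which kgd2 belongs. The acetyltransferase gene lat1 gave 9.10 ± 0.07, just under the top 25%. The pyruvate carrier genes mpc1 and mpc2 were not analysed here, nor were the cytosolic acetyl-CoA genes acl1, acl2 and acs1.

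The steps that draw on 2-oxoglutarate, and those that refill the cycle, were measured as well. All 4 glutamate genes were in the top 25%, with a median log2 signal of 9.68. They were gln1, glutamine synthetase, at 10.18 ± 0.03, gdh1, the NADP-dependent glutamate dehydrogenase, at 9.91 ± 0.04, glt1, glutamate synthase, at 9.45 ± 0.06, and gdh2, the NAD-dependent glutamate dehydrogenase, at 9.17 ± 0.07 (SD, n = 3). Pyruvate carboxylase, pyr1, which makes oxaloacetate from pyruvate, gave 10.03 ± 0.03, and the malic enzyme gene mae2 gave 9.46 ± 0.10. For the malate transporter gene mae1 no single level can be given, since its 3 probe sets had mean signals of 0.273, 1.72 and 1211. Their mean, a log2 signal of 3.05 ± 0.57, placed the gene in the bottom 25%.

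Lysine and leucine synthesis use reactions that resemble those of the cycle, and some but not all of their enzymes are related in sequence to cycle enzymes. All 5 measured genes of this list were in the top 25%, between 9.54 and 9.86 in mean log2 signal. Homocitrate synthase, lys4, gave 9.78 ± 0.04, and the genes lys2 and leu2, for later steps of the lysine and leucine pathways, gave 9.62 ± 0.07 and 9.77 ± 0.03 (SD, n = 3). Isopropylmalate synthase, leu3, gave 9.54 ± 0.06. Isopropylmalate dehydrogenase, leu1, is a relative of the isocitrate dehydrogenases and gave 9.86 ± 0.09. It is also the gene of the leu1-32 allele that all 3 samples carry.

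Of the list written for mitochondrial carriers, oac1, named as the oxaloacetate carrier gene of budding yeast, gave 8.64 ± 0.05 (SD, n = 3), and the other matches were by name only. In fission yeast ctp1 is known as a DNA repair gene, sfc1 as a gene of the transcription factor TFIIIC and dic1 as a dynein gene, so they say nothing about carriers. They gave 8.29 ± 0.04, 7.42 ± 0.01 and 6.19 ± 0.09. The CCAAT-binding factor is known for controlling genes of respiration, with Php4 as its repressing subunit under low iron. Of its 4 genes 0 were in the top 25% and 2 in the bottom 25%. The values were 3.01 ± 0.33 for php2, 8.38 ± 0.03 for php3, 6.70 ± 0.10 for php4 and 8.11 ± 0.07 for php5. These counts were not tested against one another.

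**Figure D5:**
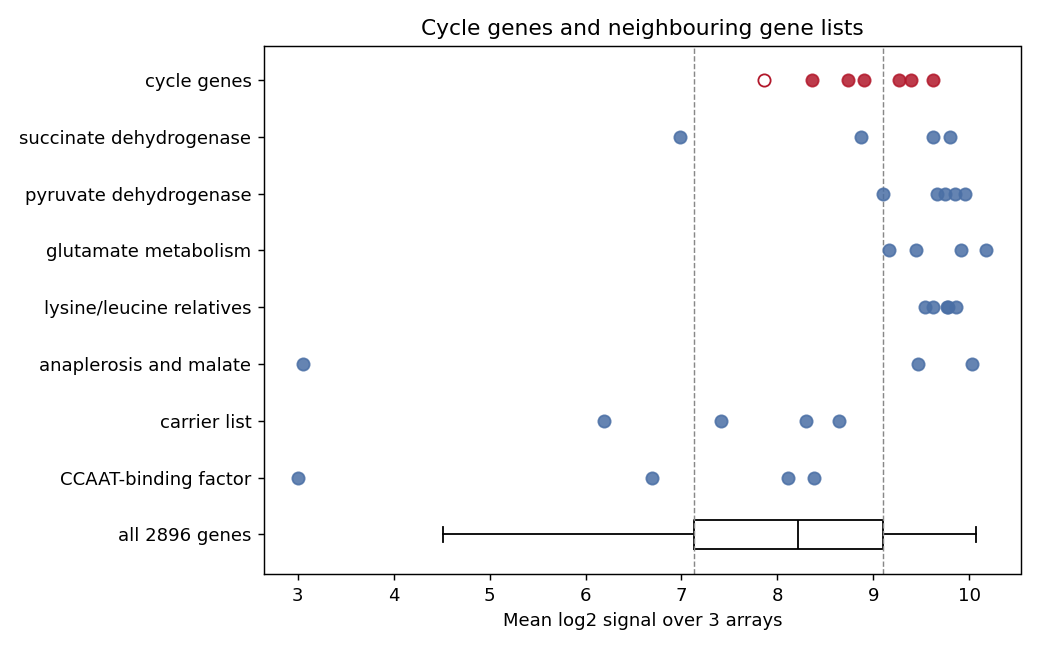
Mean log2 signal over 3 arrays of the 6 cycle genes (red), of lsc1 (open circle) and of the neighbouring lists (blue), 1 point per gene. The box shows the quartiles and median of all 2896 genes with whiskers at the 5th and 95th percentiles, and the dashed lines mark the bottom and top 25%. The cycle genes lie between 8.36 and 9.63, on both sides of the line for the top 25%.

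In the gene order of assembly ASM294v3, none of the listed genes, with lsc1 left aside, lay directly beside another. The closest 2 on a chromosome had 68 protein-coding genes between them.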

How the data were processed

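Total RNA of 3 wild type samples was measured on 1 Affymetrix array each. The authors deposited 1 linear intensity for each probe set and sample, made with MAS5 per the submitters' processing notes. The scaling target and filters are not given in the sources used here. Means trimmed by 2% at each end were 150.04, 150.04 and 150.042 on arrays 1, 2 and 3. They differed by 0.0016%, within a tolerance of 5%, so the values were turned into log2 with no further normalization. Scaling each array to a common target makes such means alike beforehand. The check could therefore hardly fail, and it does not show that further normalization was unneeded. Values over fission yeast genes correlated between arrays with Pearson's r of 0.995 to 0.996 across genes, which are not independent. The array total was 10928 probe sets, of which 5538 were named in a probe annotation that can be old. Of 5518 naming 1 gene, 2914 matched fission yeast genes by gene identifier, giving 2896 genes after averaging log2 values of probe sets. The files name no genome build. The limma test (limma 3.58.1, R 4.3.3, an intercept with eBayes) used a threshold of 0.05 and was tested on simulated data. The number of arrays limits the precision.

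The members and lists were chosen with earlier results of these data known. The text names all members, all measured genes of the lists, and the capital-symbol probe sets with members' names. Of the 10 symbols 7 matched, of which lsc1 is known for another gene in fission yeast and is given apart. Genes of like pattern were not sought, since 3 arrays of 1 group give no pattern. Protein and promoter sequences were not used here, so the planned descriptions of motifs and proteins were not made. Alternatives were a pseudocount, other normalizations, limits, probe set and variance rules, and leaving out arrays.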

Additional observations from a re-analysis of the deposited data

How the results depend on the processing

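All 7 matches, the 6 cycle genes and lsc1, stayed above background under each of 11 alternatives, with an adjusted p of at most 4.43e-10 (limma). Their difference from the limit ran from 7.06 to 9.68 on the log2 scale, and from 3.85 to 5.55 with a pseudocount of 16, which raises the limit. With symbols matched in any letter case the count of those above background was also 7. The capital-symbol probe sets that this adds belong to those that set the limit, so the count could hardly rise. Leaving out lsc1, an alternative chosen after seeing the data, gave 6 above background, 3 in the top 25% and a median log2 signal of 9.09. The median log2 signal of the 7 was 8.95 with the pseudocount of 16, against 8.90, and 8.89 to 8.91 with 1 array left out. The count in the top 25% was 3 under each alternative tried, but 0 genes were in the top 10%. Leaving out 1 array at a time, the median SD of the 7 was 0.020 to 0.057, against 0.040, and it then rests on 2 values a gene. With all 3 arrays, the median SD was 0.051 with median centring, 0.042 with quantile normalization and 0.039 with the pseudocount of 16. Genes above background numbered 2890 to 2895 in all. No paired analysis was possible because there is 1 group. The share of brightness that comes from the probes cannot be told apart from transcript level here.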
